A study of Mus musculus with 9 samples.

Results

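Clustered protocadherin genes are the neuronal cell-surface adhesion genes of the Pcdha, Pcdhb and Pcdhg clusters, which lie one after another on mouse chromosome 18. Members were chosen by gene symbol, leaving out pseudogenes named as such, and by having at least 1 read in the counts table. Of 58 genes with such a symbol, 56 qualified, among 26872 genes with a read and 57010 genes in the table. Pcdha4 and Pcdhga10 were listed at 0 in every embryo. The 56 members comprise 11 alpha alternate genes, 2 alpha C-type genes (Pcdhac1 and Pcdhac2), 22 beta genes, 11 gamma A genes, 7 gamma B genes and 3 gamma C-type genes (Pcdhgc3, Pcdhgc4 and Pcdhgc5). In GENCODE M21 on the GRCm38 build, their first exons lie between positions 36930184 and 37825079, all on the forward strand.

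Bulk RNA-seq was performed on cortex dissected at E12.5 from single embryos, with 3 embryos per genotype. Control (Ctrl) embryos carry the genotype label WT. In Cnot3 cKO embryos, Emx1-Cre deletes floxed Cnot3, which encodes a subunit of the CCR4-NOT deadenylase complex. In Cnot3;Trp53 dcKO embryos, the same Cre also targets floxed Trp53, the gene of p53. The level of both transcripts in each embryo is given below. Emx1-Cre acts in radial glia of the dorsal telencephalon and their progeny, and the dissected tissue also holds cells outside that lineage, such as blood vessels and meninges. In bulk tissue, fewer cells of a type and less RNA per cell cannot be told apart.

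In the alpha and gamma clusters, each gene has its own promoter and its own large variable first exon, which is spliced to constant exons shared by the whole cluster. Beta genes have no shared constant exons. Neurons choose a small set of alternate genes, through CTCF and cohesin looping and promoter methylation, whereas C-type genes are used more uniformly. The proteins bind identical copies of themselves on neighbouring cells and act in self-avoidance of dendrites and axons, in dendrite branching and in neuron survival. At E12.5, the cortex is mainly radial glia with the first neurons.

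The members are minor transcripts in this tissue. They took 2935 to 4433 reads per embryo of 21193798 to 45073349, or 98.4 to 142 per 1000000 reads counted. Levels are given as CPM, the counts per 1000000 reads after TMM scaling. Cnot3 was at 98.2 CPM or more in every Ctrl embryo, at 14.6 to 17.3 in cKO and 7.33, 48.2 and 19.0 in dcKO replicates 1 to 3. Trp53 was at 215 to 254 CPM in Ctrl, 164 to 167 in cKO and 15.1, 110 and 20.6 in dcKO. dcKO replicate 2 thus kept more of both transcripts than the other dcKO embryos. It also had the deepest library and the fewest genes with a read (18230, against 19057 to 21370 elsewhere). Of 4424 genes with a mean of 10 to 100 reads, 13.5% were at 0 in dcKO replicate 2, against 0.836% to 5.63% in the other embryos. Several results for dcKO are therefore also given without this embryo. The limma voom calls and the calls in lists of other genes are given with all 9 embryos only.

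In control cortex the gamma cluster dominated. Its 21 genes took 82.0% ± 0.949 (SD, n = 3) of all clustered protocadherin reads, the 22 beta genes 11.5% ± 0.191 and the 13 alpha genes 6.42% ± 0.959. Per kb of exon that no other gene shares, the shares were 84.5% for gamma, 8.43% for beta and 7.07% for alpha. Levels between genes are given on this scale, as CPM per kb of own exon. The highest level was that of Pcdhgc3, at 8.83 ± 1.49 CPM per kb. Pcdhgc3 is the C-type gene known for promoting dendrite branching in cortical neurons. Pcdhgb6 followed at 4.97 ± 0.708, and the ranges of these 2 genes over the 3 embryos did not overlap.

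The next levels lay close together. Pcdhga11 was at 2.38 ± 0.25 CPM per kb, Pcdhga5 at 2.14 ± 0.243, Pcdhga7 at 1.95 ± 0.355 and Pcdhgb7 at 1.93 ± 0.356, and these neighbours did not differ beyond their spread. Pcdhgb2 was the third gamma B gene at 1.24 ± 0.168. Among the genes tested below, the lowest of their subgroups were Pcdhgb4 at 0.787 ± 0.276 and Pcdhga1 at 0.294 ± 0.0377. The C-type genes spanned a wide range of levels. Pcdhac2, which is known for the tiling of serotonergic axons, was at 1.80 ± 0.30 CPM per kb, and Pcdhgc4, the gamma gene known for its role in neuron survival, at 1.03 ± 0.481. Pcdhac1 was at 0.387 ± 0.144 and Pcdhgc5 at 0.0795 ± 0.0425 CPM per kb.

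Beta and alpha alternate genes were low. The highest beta genes were Pcdhb7 at 0.46 ± 0.0774, Pcdhb8 at 0.339 ± 0.265 and Pcdhb22 at 0.327 ± 0.0465 CPM per kb, and the lowest tested was Pcdhb6 at 0.207 ± 0.0499. The highest alpha alternate genes were Pcdha12 at 0.332 ± 0.0987, Pcdha7 at 0.137 ± 0.0828 and Pcdha5 at 0.122 ± 0.166, where the rank of Pcdha5 rested on 1 embryo (18, 1 and 2 reads). The position of a gene within its cluster gave little order to these levels. Spearman's rho with the 5′ to 3′ order was 0.17 over 11 alpha alternate genes, -0.03 over 22 beta genes and 0.18 over 18 gamma A and B genes, as a description over genes that share libraries and cluster. For the mean log2 CPM difference to Ctrl, rho with the same order was -0.64 in cKO and -0.17 in dcKO over the gamma A and B genes, with both mutants set against the same Ctrl embryos. It was 0.49 and 0.64 over the alpha alternate genes, most of which had few reads, and 0.0 and 0.15 over the beta genes. Taking the full exon length in place of own exon kept 9 of the 10 highest genes among the 10 highest, and Pcdhga4 dropped out.

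**Figure D1:**
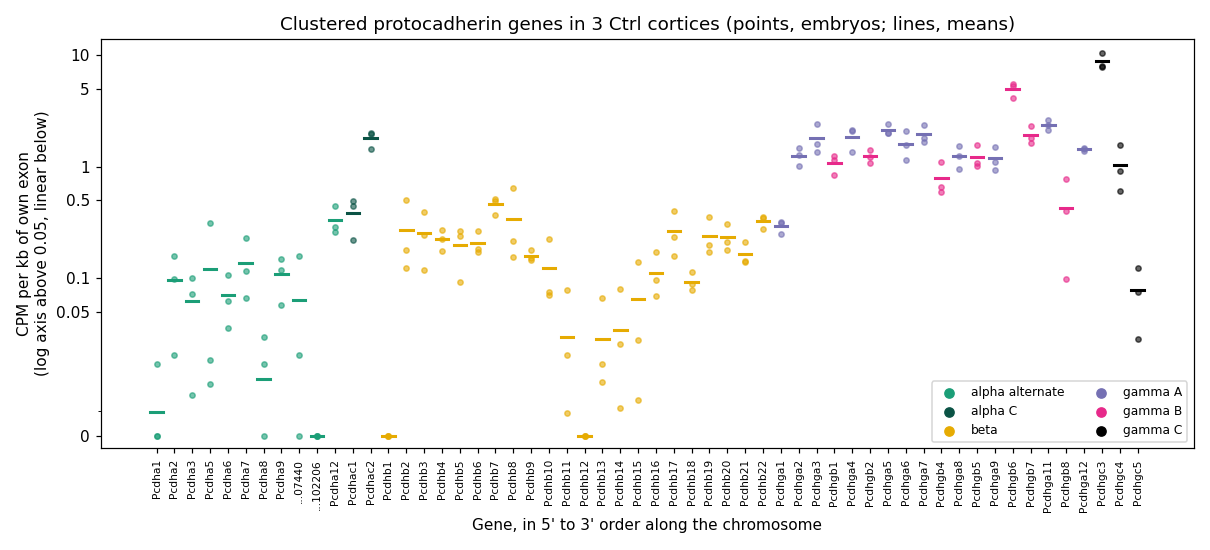
Level of each of the 56 genes in the 3 Ctrl embryos (points) with the mean (line), in CPM per kb of own exon, on an axis that is logarithmic above 0.05 and linear below, in 5′ to 3′ order. Colours mark the subgroups. Most gamma genes sit above the beta and alpha alternate genes, with Pcdhgc3 highest at a mean of 8.83. The 2 labels starting with dots are the genes ENSMUSG00000007440 and ENSMUSG00000102206, which GENCODE M21 gives the same symbol, Pcdha11.

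The beta genes took a larger share of clustered protocadherin reads in every mutant embryo than in any control. The beta share was 11.3%, 11.7% and 11.6% in Ctrl replicates 1 to 3. It was 18.8%, 19.8% and 15% in cKO, and 25.2%, 15.6% and 12.8% in dcKO replicates 1 to 3. Neither mutant overlapped Ctrl, although dcKO replicate 3 lay close to the controls, and the mutants overlapped each other. The gamma share moved the other way, from 81.0% to 82.9% in Ctrl to between 72.7% and 80.7% in cKO and between 69.1% and 79.0% in dcKO. The alpha share overlapped among all genotypes, at 6.42% ± 0.959 in Ctrl, 5.91% ± 1.64 in cKO and 6.86% ± 1.25 in dcKO. Without dcKO replicate 2 the mean dcKO share of the beta genes was 19.0% rather than 17.9%, and without dcKO replicate 1 it was 14.2%. These shares are sums over members and were not tested. Pcdha4 and Pcdhga10 had 0 reads although GENCODE M21 gives them the shared constant exons. Reads in constant exons thus appear not to be counted for single genes. Alpha and gamma values would then come from variable exons only, and beta values from whole transcripts. The part of this difference in the shares was not tested.

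In summed CPM, the 22 beta genes were at 16.1 ± 1.23 in Ctrl, 22.3 ± 3.63 in cKO and 20.8 ± 5.76 in dcKO (SD, n = 3). Every cKO embryo (18.6 to 25.8) and every dcKO embryo (17.2 to 27.4) lay above every Ctrl embryo (14.7 to 17.0). In dcKO the excess rested largely on replicate 1, since replicates 2 and 3 were at 17.7 and 17.2. The mean dcKO excess over Ctrl was 4.65 CPM, or 1.33 without replicate 1 and 6.18 without replicate 2 (sums and shares without an embryo were added after seeing the data). The 11 gamma A genes were at 47.5 ± 4.82 in Ctrl, 41.3 ± 4.12 in cKO and 34.9 ± 4.22 in dcKO. Every dcKO embryo (32.1 to 39.8) lay below every Ctrl embryo (43.9 to 53.0) in gamma A, while cKO (37.8 to 45.8) overlapped. The 3 gamma C-type genes summed to 33.8 ± 4.19 in Ctrl and 26.1 ± 3.19 in cKO without overlap, and to 23.8 ± 10.8 in dcKO, where replicate 3 was at 36.3 and the mean without it 17.6. The 2 alpha C-type genes summed to 5.55 to 7.32 CPM in Ctrl and to at most 5.46 in dcKO, without overlap, whereas cKO (3.73 to 7.14) overlapped. Gamma B and alpha alternate sums overlapped between each mutant and Ctrl. The gamma B difference between dcKO and Ctrl was -2.71 CPM. It was -5.92 without dcKO replicate 2 and -0.0718 without dcKO replicate 1. The gamma A difference was -12.5, and -11.5 and -11.1 without these embryos in the same order. All members together were at 140 ± 11.6 CPM in Ctrl and 125 ± 5.71 in cKO, and between 109 and 134 in the dcKO embryos.

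**Figure D2:**
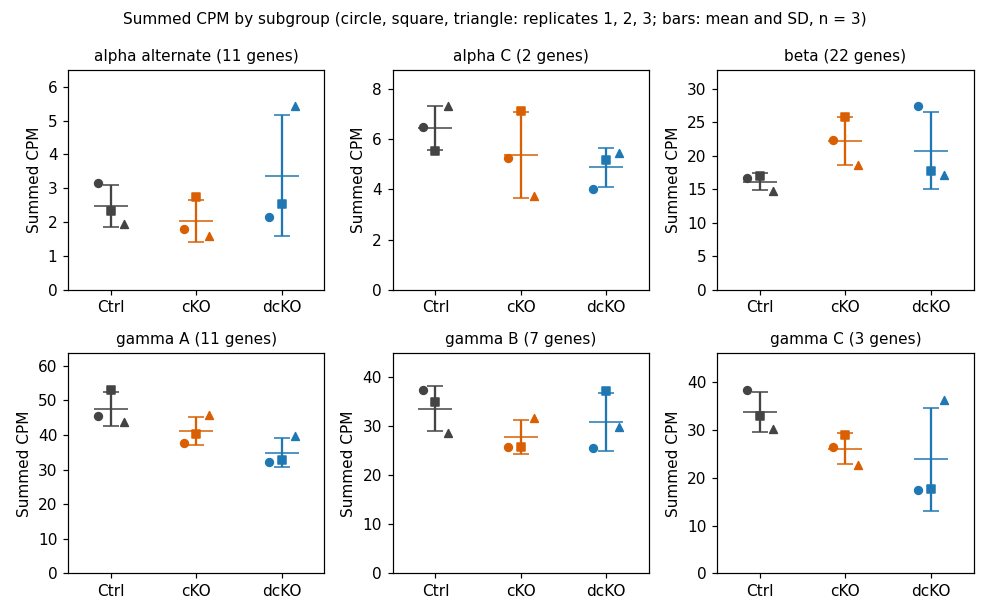
Summed CPM of each subgroup in every embryo (circle, square and triangle are replicates 1, 2 and 3), with the mean and SD of 3 embryos per genotype. Every mutant embryo lies above the 3 Ctrl embryos for the beta genes, and every dcKO embryo lies below them for the gamma A genes.

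The subgroups also differ in base composition, and a correction for GC content moved their medians in both directions. GC content of the longest annotated transcript was 39.1% to 49.0% for beta genes and 51.0% to 55.4% for gamma genes. The median was 49.4% over all genes tested. For alpha and gamma genes this sequence can include the shared constant exons. With a GC correction, the median log2 fold change of the 9 tested beta genes was 0.23 rather than 0.40 in cKO, and 0.44 rather than 0.77 in dcKO. For the 11 gamma A genes it was -0.15 rather than -0.22 in cKO, and -0.06 rather than -0.26 in dcKO. The 2 tested gamma C-type genes had a median of 0.27 rather than 0.04 in cKO, and of 0.14 rather than -0.24 in dcKO, a change of sign. The 2 alpha C-type genes had -0.28 rather than -0.14 in dcKO. The part of base composition in these differences was not otherwise tested. Over all 24 alternatives, the beta median stayed above 0 in both mutants (0.08 to 0.54 in cKO and 0.41 to 0.98 in dcKO) and the gamma A median below 0 (-0.40 to -0.02 and -0.63 to -0.06). The lowest beta medians, 0.08 in cKO and 0.41 in dcKO, came from the fit blocked by the number in the embryo code. For dcKO against Ctrl, that fit rests on dcKO replicate 3 and Ctrl replicate 3 alone, which share a number. Most of the 24 alternatives hold only the beta genes that passed the filter. Over all 22 beta genes, the median difference in log2 CPM was 0.55 in cKO and 0.03 in dcKO. The gamma B median in dcKO, -0.27, turned to 0.07 under the GC correction and was -0.52 without dcKO replicate 2, where the gamma C-type median was -0.11.

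Each gene was then tested for a change between genotypes with edgeR's quasi-likelihood test in 1 model of all 9 embryos. Of the 56 members, 31 exceeded 10 reads in each of the 9 embryos and were tested among 13680 genes, including 9 of 22 beta genes, 1 of 11 alpha alternate genes and all 11 gamma A genes. This filter leaves out any gene that is near 0 in even 1 embryo. Calls required an adjusted p (Benjamini-Hochberg) below 0.05 and an absolute log2 fold change above 1. With this rule 0 of 31 members were called in cKO (all genes tested: 0.0146%), 0 in dcKO (0%) and 0 in dcKO against cKO (0.0146%). edgeR thus called almost no gene in the model of 9 embryos. DESeq2 on the same genes called 0 of 31 members in cKO (all genes: 8.82%), 2 in dcKO (8.46%) and 0 in dcKO against cKO (0.380%). In edgeR without dcKO replicate 2, 0 of 32 members were called in cKO (8.45% of all genes) and 0 in dcKO (9.81%). In a fit of the 6 Ctrl and cKO embryos alone, 0 of 32 members were called (13.1%). The members' standard errors in cKO ran from 0.278 to 0.691 on the log2 scale, with a median of 0.388 against 0.299 over all genes tested.

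At an unadjusted edgeR p-value under 0.05, in cKO 0 of 31 members were higher (all genes: 15.3%) and 1 was lower (11.7%). In dcKO 1 was higher (18.0%) and 5 were lower (11.2%). In dcKO against cKO, 0 were higher (2.05%) and 3 were lower (2.38%). By position of the embryos alone, all 3 cKO embryos exceeded all 3 controls for 2 of 31 members (29.2% of all genes tested) and lay below them for 5 (28.0%). For dcKO these counts were 2 (15.6%) and 7 (11.2%), and for dcKO against cKO 1 (2.62%) and 4 (3.63%). The median log2 fold change of the 31 members was 0.01 in cKO and -0.14 in dcKO, beside 0.01 and 0.11 over all genes tested. Between dcKO and cKO it was -0.09, beside 0.07, and -0.03 without dcKO replicate 2. With the GC correction the median in dcKO was 0.04. Without any filter, over all 56 members, the median difference in log2 CPM was 0.03 in cKO and -0.26 in dcKO. In cKO 30 of the 56 were higher, among them 19 of 22 beta genes and 2 of 11 alpha alternate genes. In dcKO 18 of the 56 were higher, among them 11 of 22 beta genes and 1 of 11 gamma A genes.

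**Figure D3:**
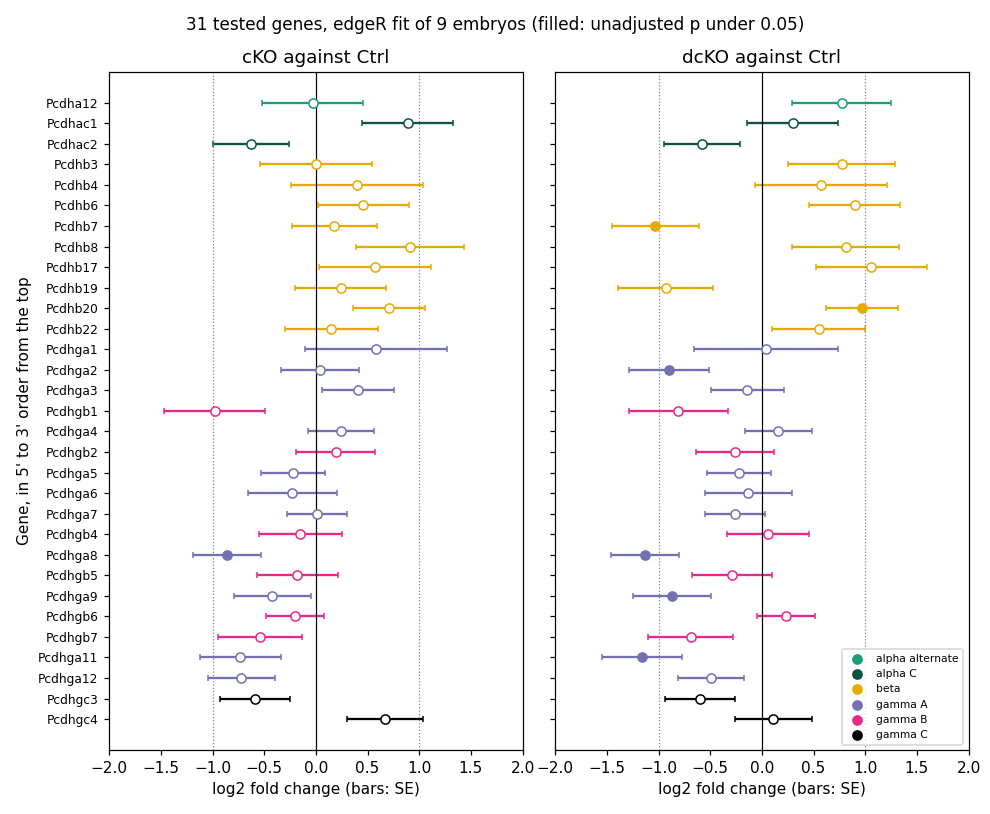
Log2 fold change of the 31 tested genes with its standard error in cKO (left) and dcKO (right) against Ctrl, from edgeR in 9 embryos, in 5′ to 3′ order from the top. Filled points have an unadjusted p-value under 0.05, and dotted lines mark -1 and 1. Both mutants are compared with the same Ctrl embryos. Of the 9 beta genes 7 lie above 0 in dcKO, with Pcdhb7 and Pcdhb19 below, and 9 of the 11 gamma A genes lie below 0.

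In dcKO the smallest p-values were those of 2 gamma A genes, Pcdhga8 and Pcdhga11. Pcdhga8 (first exon from 37725706 to 37728316 on chromosome 18 of GRCm38) was at 2.41, 3.82 and 3.10 CPM in Ctrl, at 1.46, 1.86 and 1.81 in cKO and at 1.67, 1.30 and 1.28 in dcKO replicates 1 to 3. All 6 mutant embryos lay below all 3 controls. The log2 difference was -0.86 in cKO (SE 0.33, edgeR adjusted p = 0.133, DESeq2 0.0905) and -1.13 in dcKO (SE 0.33, edgeR adjusted p = 0.0697). DESeq2 called it lower in dcKO (log2 fold change -1.15, adjusted p = 0.0195), and called it also without dcKO replicate 2 (adjusted p = 0.0366). Some embryo codes share a number, whose meaning is not given in the sources used here. Against the control with the same number, the log2 difference was -0.37 and -1.07 for the cKO embryos and -1.26 for the dcKO embryo.

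Pcdhga11 (first exon from 37755731 to 37758367) was at 6.24, 6.94 and 5.62 CPM in Ctrl. It was at 3.79, 2.83 and 4.71 in cKO and at 1.94, 2.12 and 4.39 in dcKO. Again all 6 mutant embryos lay below all controls, with dcKO replicate 3 nearest to them. The log2 fold change was -0.73 in cKO (SE 0.39, edgeR adjusted p = 0.251, DESeq2 0.187) and -1.16 in dcKO (SE 0.39, edgeR adjusted p = 0.0915). DESeq2 called it lower in dcKO (log2 fold change -1.20, adjusted p = 0.0219, and 0.0498 without dcKO replicate 2). Between embryos with the same code number, the log2 differences were -1.14 and -0.56 in cKO and -0.36 in dcKO. The exact two-sided permutation test gave p = 0.1 for each gene in each mutant, the smallest that 3 embryos against 3 allow.

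Pcdhga12, the most 3′ gamma A gene, was at 6.69, 6.60 and 6.27 CPM in Ctrl, a narrow range. It was at 4.05, 2.83 and 5.01 in cKO and at 3.44, 5.21 and 5.30 in dcKO, below every control in all 6 embryos. The log2 fold change was -0.72 in cKO (edgeR adjusted p = 0.188) and -0.49 in dcKO (adjusted p = 0.333). Pcdhgc3 was at 35.6, 27.2 and 26.7 CPM in Ctrl and at 21.2, 21.9 and 16.2 in cKO, without overlap, a log2 fold change of -0.59 (SE 0.34, edgeR adjusted p = 0.291). In dcKO it was at 13.4, 14 and 31.8, where replicate 3 lay within the controls and the other 2 embryos below them (log2 fold change -0.60, adjusted p = 0.267). In the fit of the 6 Ctrl and cKO embryos, 4 of 32 members had an adjusted p under 0.05 at any fold change (47.2% of all genes), all 4 lower (23.7%). These were Pcdhgc3 (0.0142), Pcdhga8 (0.0397), Pcdhga11 (0.0404) and Pcdhga12 (0.0428), with log2 fold changes of -0.60, -0.86, -0.73 and -0.72.

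Other gamma A and B genes had lower levels in some or all mutant embryos. Pcdhga9 was at 3.28 to 5.26 CPM in Ctrl, 2.12 to 4.20 in cKO and 1.86 to 2.90 in dcKO. Its dcKO difference was -0.87 on the log2 scale (edgeR adjusted p = 0.158), with all dcKO embryos below the controls. Pcdhga2 was at 2.60 to 3.79 in Ctrl and 2.60 to 3.88 in cKO, but at 2.28, 0.996 and 1.9 in dcKO, below every other embryo. The log2 fold change of Pcdhga2 was 0.04 in cKO, -0.90 in dcKO (adjusted p = 0.156) and -0.94 in dcKO against cKO (adjusted p = 0.889). Pcdhgb1 was at 3.26, 3.02 and 2.20 CPM in Ctrl, 2.08, 0.521 and 1.70 in cKO and 2.08, 1.25 and 1.49 in dcKO, with log2 fold changes of -0.98 (adjusted p = 0.226) and -0.81 (adjusted p = 0.286). In GENCODE M21 the first exon of Pcdhga4 overlaps an exon of Pcdhgb1, and the first exon of Pcdhga8 an exon of Pcdhgb4, so that reads there may be assigned to either gene or to none, and the values of these 4 genes are uncertain. The same holds for Pcdhb21 and Pcdhb22, whose exons overlap, and for Pcdhgc5, whose annotated first exon overlaps exons of the other gamma genes. Pcdhgb7 was at 4.25 to 6.03 in Ctrl, 2.30 to 4.98 in cKO and 2.19 to 4.55 in dcKO.

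The remaining abundant gamma genes overlapped between genotypes. Pcdhgb6 was at 10.7 to 14.1 CPM in Ctrl and 9.81 to 12.8 in cKO, and at 11, 19.7 and 14.2 in dcKO. The log2 difference was -0.20 in cKO (adjusted p = 0.675), 0.23 in dcKO (adjusted p = 0.594, and -0.02 without dcKO replicate 2) and 0.43 in dcKO against cKO (adjusted p = 0.889, and 0.18 without dcKO replicate 2). Pcdhga7 was within 4.19 to 7.29 CPM in all 9 embryos, and Pcdhga5 within 3.65 to 6.16. Pcdhga3 was at 3.55 to 6.35 in Ctrl, 4.71 to 7.51 in cKO and 3.22 to 5.22 in dcKO, a log2 fold change of -0.55 between dcKO and cKO (adjusted p = 0.889). Pcdhga1 varied most in cKO, at 0.547, 2.79 and 0.943 CPM. Pcdhgb2 and Pcdhgb4 had log2 fold changes of 0.19 and -0.15 in cKO and of -0.26 and 0.06 in dcKO (-0.46 and 0.19 without dcKO replicate 2).

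The C-type genes did not move together in cKO. Pcdhac1, Pcdhgc4 and Pcdhgc5 had their highest mean there, although Pcdhgc4 and Pcdhgc5 overlapped the controls. Pcdhgc3, described above, lay below every control in cKO, and Pcdhac2 had its highest mean in Ctrl. Pcdhac1 was at 0.571, 1.14 and 1.26 CPM in Ctrl and at 1.82, 2.27 and 1.43 in cKO, with every cKO embryo above every control (log2 fold change 0.89, SE 0.44, edgeR adjusted p = 0.217). In dcKO it was at 1.36, 1.53 and 0.745, overlapping the controls. Pcdhgc4 was at 2.12, 5.41 and 3.21 in Ctrl, 4.85, 6.66 and 5.54 in cKO and 3.94, 3.40 and 4.22 in dcKO. The log2 difference was 0.67 in cKO (adjusted p = 0.275) and 0.11 in dcKO (adjusted p = 0.862, and 0.19 without dcKO replicate 2), and the dcKO embryos were all below the cKO embryos (log2 fold change -0.56, adjusted p = 0.889). Pcdhgc5, with 5 to 24 reads per embryo, was at 0.366 ± 0.196 CPM in Ctrl, 0.584 ± 0.284 in cKO and 0.214 ± 0.0654 in dcKO and was not tested. Pcdhac2 was at 4.41 to 6.06 in Ctrl, 2.30 to 4.87 in cKO and 2.64 to 4.72 in dcKO, with log2 fold changes of -0.63 (adjusted p = 0.306) and -0.58 (adjusted p = 0.321).

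**Figure D4:**
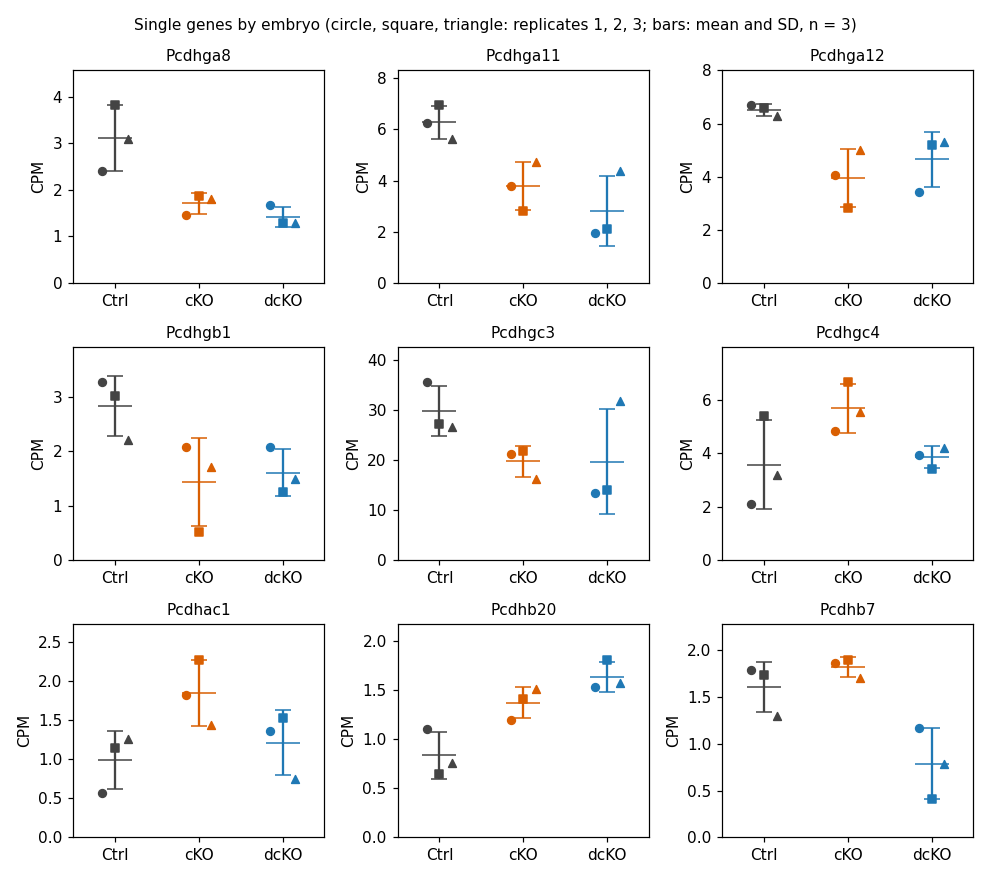
CPM of 9 genes in every embryo (circle, square and triangle are replicates 1, 2 and 3), with the mean and SD of 3 embryos per genotype. All 6 mutant embryos lie below the controls for Pcdhga8, Pcdhga11, Pcdhga12 and Pcdhgb1 and above them for Pcdhb20, and only dcKO embryos lie below the controls for Pcdhb7.

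Among the beta genes, Pcdhb20 was the gene whose mutant embryos all exceeded the controls. It was at 1.10, 0.645 and 0.757 CPM in Ctrl, 1.20, 1.41 and 1.51 in cKO and 1.53, 1.81 and 1.57 in dcKO. The log2 fold change was 0.71 in cKO (SE 0.35, edgeR adjusted p = 0.22) and 0.97 in dcKO (SE 0.35, edgeR adjusted p = 0.107, DESeq2 0.121). Pcdhb7 and Pcdhb19 had the smallest p-values between dcKO and cKO, and neither passed the adjusted threshold. Pcdhb7 was at 1.79, 1.74 and 1.30 in Ctrl, 1.86, 1.9 and 1.70 in cKO and 1.17, 0.409 and 0.786 in dcKO. The log2 difference was -1.03 in dcKO (adjusted p = 0.14) and -1.21 in dcKO against cKO (SE 0.42, adjusted p = 0.889). Pcdhb19 was at 1.23 to 2.53 in Ctrl, 1.53 to 2.45 in cKO and 1.28, 0.511 and 0.911 in dcKO, so that dcKO overlapped Ctrl. The log2 difference was -0.93 against Ctrl (edgeR adjusted p = 0.2, DESeq2 0.192) and -1.18 against cKO (SE 0.45, edgeR adjusted p = 0.889).

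Pcdhb8 was at 2.24, 0.545 and 0.757 CPM in Ctrl, 2.19, 1.86 and 2.64 in cKO and 1.58, 1.86 and 2.81 in dcKO, so that 1 control embryo lay within the mutants (log2 fold change 0.91 in cKO, SE 0.52, adjusted p = 0.29). Pcdhb22 was at 1.69 to 2.20 in Ctrl, 1.32 to 2.97 in cKO and 4.25, 1.56 and 3.10 in dcKO. Pcdhb6 was at 0.652 to 0.992 in Ctrl, 0.792 to 1.50 in cKO and 0.911 to 1.99 in dcKO, a log2 fold change of 0.90 in dcKO (edgeR adjusted p = 0.199), and of 0.58 without dcKO replicate 2 (edgeR adjusted p = 0.372). The only alpha alternate gene tested, Pcdha12, was at 0.645 to 1.10 in Ctrl, 0.401 to 1.04 in cKO and 0.861, 1.86 and 1.49 in dcKO, a log2 fold change of 0.77 in dcKO (edgeR adjusted p = 0.304), and of 0.49 without dcKO replicate 2 (edgeR adjusted p = 0.516). Of the 31 tested members, 14 had a dcKO fold change that moved by more than 1.5 times or changed sign without dcKO replicate 2. Pcdha7 had 0 to 12 reads per embryo. Pcdha5 had 18, 1 and 2 reads in Ctrl, 0, 0 and 1 in cKO and 6, 0 and 23 in dcKO.

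Several beta genes were at 0 in dcKO replicate 2, and others were far above their level elsewhere. In dcKO replicate 2, 7 of 22 beta genes and 15 of 56 members had 0 reads, against 1 to 5 beta genes and 4 to 8 members in the other 8 embryos. Pcdhb5 had 8 to 39 reads in the Ctrl and cKO embryos and 36, 0 and 2 in dcKO, and Pcdhb9 had 11 to 46 in the Ctrl and cKO embryos and 31, 0 and 14 in dcKO. In the same embryo Pcdhb11 and Pcdhb15 reached 1.74 and 2.25 CPM, whereas no other embryo exceeded 0.414 and 0.397. These 4 genes were chosen after their values were seen. Of the members, 31 had a mean of 10 to 100 reads (not the same 31 as were tested). Among these, 12.9% were at 0 in dcKO replicate 2 and 9.68% in dcKO replicate 3, beside 13.5% and 5.63% of all genes in that range. The part of library quality in these zeros was not tested. Scatter among embryos of a genotype, as the variance over the mean of depth-scaled reads, had a median over these members of 2.76 in Ctrl, 3.85 in cKO and 4.82 in dcKO, beside 2.47, 4.69 and 12 over all genes of that range. Without dcKO replicate 2, the dcKO medians were 4.07 for the members and 5.82 for all genes of that range.

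**Figure D5:**
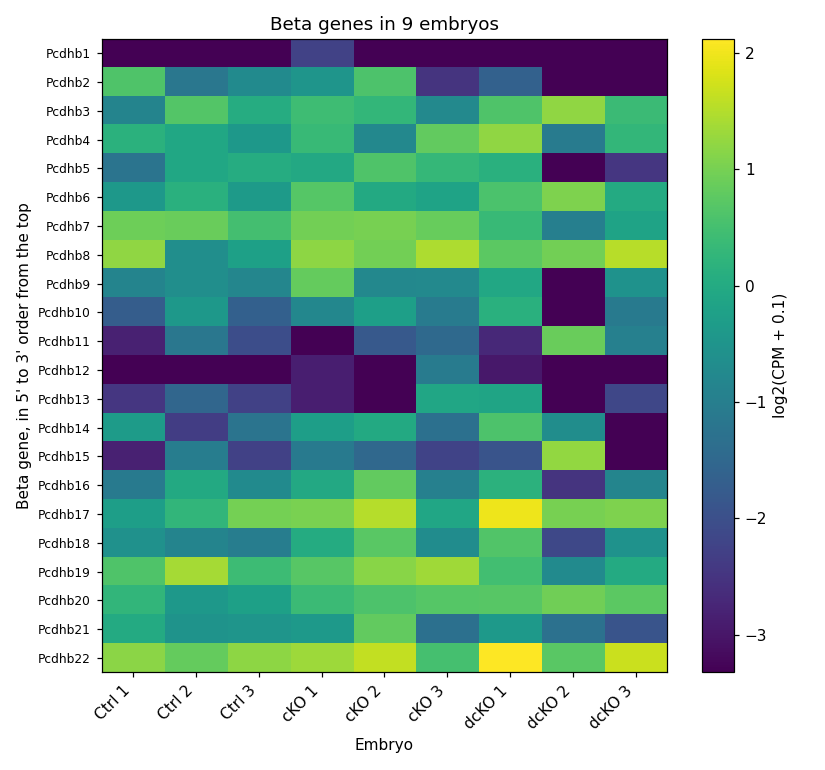
Level of the 22 beta genes in 9 embryos, as log2(CPM + 0.1) in colour (dark is low), in 5′ to 3′ order from the top. Pcdhb1 and Pcdhb12 are dark in nearly every embryo. In dcKO 2, 7 genes are at 0 while Pcdhb11 and Pcdhb15 are at their highest.

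Other tools, filters and left-out embryos called a few members. With edgeR's own filter (filterByExpr), 17 of 22 beta genes were tested and 0 called in either mutant (all genes: 0.0118% in cKO and 0% in dcKO), with 15 above 0 in cKO and 10 in dcKO. DESeq2 on those genes called 2 of 42 members in dcKO (7.93% of all genes), and without dcKO replicate 2 it called 2 of 32 (12.2%), Pcdhga8 and Pcdhga11 each time. limma voom with sample weights called 1 member in cKO (13.7% of all genes), Pcdhb8, which was higher (adjusted p = 0.00727). It called 5 in dcKO (26.8% of all genes). Of these Pcdhga11, Pcdhga9, Pcdhgb7 and Pcdhgc3 were lower, and Pcdhb17 was higher. Without dcKO replicate 3, edgeR called 4 members in dcKO (23.6%), all lower: Pcdhga8, Pcdhga9, Pcdhga11 and Pcdhgc3, the last at a log2 fold change of -1.12 (adjusted p = 0.00223). Blocked by the number in the embryo code, the edgeR fit called Pcdhgb1 lower in cKO (14.5% of all genes, log2 fold change -1.65, adjusted p = 0.0171). This fit rests on the 2 pairs of cKO and Ctrl embryos that share a number, with few embryos left to estimate the spread. The Pcdhgb1 log2 differences in these pairs were -2.61 and -0.83. Pcdhb17, at 0.734 to 1.87 CPM in Ctrl, 0.829 to 2.75 in cKO and 1.92 to 3.83 in dcKO, is named here after its calls were seen.

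Genes that act on the clusters or with their proteins were examined as lists. Of 25 regulators of the clusters (insulation, cohesin, promoter methylation and silencing), 3 were higher and 3 lower in cKO at an unadjusted p under 0.05 (all genes: 15.3% and 11.7%), and 8 were higher and 3 lower in dcKO (18.0% and 11.2%). Their median log2 fold changes were 0.01 and 0.22, and edgeR called 0. Tet3, which oxidizes methylated cytosine, was at 150 to 197 CPM in Ctrl and 61.9 to 71.2 in cKO (log2 fold change -1.34, edgeR adjusted p = 0.0509, DESeq2 6.35e-04), and at 56.4 to 127 in dcKO (log2 fold change -0.97). DESeq2 called Tet3 lower in cKO. The DNA methyltransferase gene Dnmt3a was at 280 to 331 CPM in Ctrl and 201 to 214 in cKO (log2 fold change -0.54, DESeq2 adjusted p = 0.0324). Smc3 and Stag1 encode cohesin subunits. Smc3 was at 228 to 266 CPM in Ctrl and 363 to 404 in cKO (log2 fold change 0.65, DESeq2 adjusted p = 0.0536), and Stag1 at 159 to 160 in Ctrl and 186 to 355 in dcKO (log2 fold change 0.81, DESeq2 adjusted p = 0.0195). Hdac8, the SMC3 deacetylase gene, had a log2 fold change of 0.89 in dcKO (DESeq2 adjusted p = 0.0148).

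Of 23 tested partners and effectors (kinases, the WAVE complex and the cleavage enzymes), 3 were higher and 4 lower in cKO at an unadjusted p under 0.05 (all genes: 15.3% and 11.7%) and 2 higher and 2 lower in dcKO (18.0% and 11.2%), with a median of -0.17 in each. In cKO the smallest p-values were those of Cyfip2 (log2 fold change 0.69), Wasf2 (-0.53) and Abi1 (0.45), all of the WAVE pathway of actin branching. In dcKO they were those of Wasf2 (-0.66), Pdcd10 (0.88) and Abi1 (0.53), with DESeq2 adjusted p-values of 0.00477, 0.0181 and 0.0375. Neither edgeR nor DESeq2 called a partner with a log2 fold change above 1 in size.

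Of 18 protocadherins and large cadherins outside the clusters that were tested, 5 were lower and 0 higher in cKO at an unadjusted p under 0.05 (all genes: 11.7% and 15.3%), and 0 had a log2 fold change above 0 (median -0.47). In dcKO 6 were lower and 0 higher (11.2% and 18.0%, median -0.24). DESeq2 called 4 of the 18 lower in cKO (all genes: 3.87% lower, 4.94% higher) and 4 in dcKO (3.79% lower, 4.66% higher). Celsr2, Celsr1 and Dchs1, which act in planar polarity and progenitor adhesion, had log2 fold changes of -1.97, -1.94 and -1.61 in cKO and of -1.82, -1.79 and -1.63 in dcKO. Celsr2 was at 179 to 298 CPM in Ctrl, 51.2 to 70.5 in cKO and 24.4 to 99.8 in dcKO (edgeR adjusted p = 0.0509 in cKO and 0.0511 in dcKO). Of 10 classical cadherins tested, 2 were higher and 3 lower in cKO (all genes: 15.3% and 11.7%) and 1 higher and 3 lower in dcKO (18.0% and 11.2%), with medians of 0.13 and -0.13. Cdh8 was at 3.21 to 4.51 CPM in Ctrl, 6.95 to 9.92 in cKO and 8.40 to 13.9 in dcKO (DESeq2 adjusted p = 0.00415 and 1.21e-04). Cdh22 had log2 fold changes of -1.80 and -2.17, and Cdh4 of -1.03 and -0.92. DESeq2 called 1 classical cadherin higher and 3 lower in cKO, and 1 higher and 2 lower in dcKO.

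Of 20 tested neighbours of the clusters on the chromosome, 6 were higher and 2 lower in cKO at an unadjusted p under 0.05 (all genes: 15.3% and 11.7%), and 5 were higher and 4 lower in dcKO (18.0% and 11.2%), with medians of 0.12 and 0.03. Taf7, a TFIID subunit gene that lies between the beta and gamma clusters on the other strand, was at 26.5 to 28.4 CPM in Ctrl. It was at 50.9 to 52.0 in cKO (log2 fold change 0.89, DESeq2 adjusted p = 0.0193) and at 83.7, 52.7 and 39.4 in dcKO (log2 fold change 1.08, edgeR adjusted p = 0.0511, DESeq2 0.00442), so that DESeq2 called it higher in dcKO. Hars2 had log2 fold changes of 0.64 in cKO and 0.90 in dcKO (DESeq2 adjusted p = 0.0342 and 0.00252) and Slc35a4 of -0.99 and -0.93 (DESeq2 adjusted p = 0.00544 and 0.00789), and DESeq2 called only Slc35a4 of these, in cKO, at a DESeq2 log2 fold change of -1.01. DESeq2 also called the non-clustered Pcdh1 lower in dcKO (log2 fold change -1.72, adjusted p = 0.00206).

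Markers of several cell types moved with genotype, and their part in the protocadherin values was not tested. Summed over 10 radial glia markers, levels were 3435 to 4249 CPM in Ctrl, 3222 to 3690 in cKO and 3421 to 3931 in dcKO. The 6 intermediate progenitor markers (402 to 521, 363 to 443 and 338 to 678) and the 11 cortical neuron markers (1510 to 1980, 1134 to 1622 and 973 to 1905) overlapped in their sums as well. Single markers lay below every control in all cKO embryos for 6 of the 10 radial glia, 3 of the 6 intermediate progenitor, 4 of the 11 cortical neuron and 3 of the 6 meningeal fibroblast genes, beside 28.0% of all genes tested, and 1 radial glia gene lay above. At an unadjusted edgeR p under 0.05 in cKO, 2 cortical neuron genes were higher and 0 lower. In dcKO these counts below every control were 1, 0, 1 and 3, beside 11.2% of all genes tested. They were 4 of 5 for endothelial, 3 of 5 for microglial and 1 of 7 for Cajal-Retzius genes. Above every control in cKO were 3 of 4 choroid plexus and 2 of 5 erythroid genes, beside 29.2% of all genes tested. The Cajal-Retzius, subpallium and microglial lists each had 1 such gene. The 6 meningeal fibroblast markers were at 780 to 858 CPM in Ctrl, 452 to 694 in cKO and 324 to 518 in dcKO. The 4 choroid plexus markers were at 0.652 to 1.79, 13.7 to 55.8 and 10.5 to 89.0, with Ttr at 0 in at least 1 embryo. The 9 subpallium markers were at 1.24 to 1.51, 2.26 to 4.54 and 1.78 to 9.12, and 8 of them were at 0 in at least 1 embryo. Endothelial (193 to 249 in Ctrl and 113 to 125 in dcKO, 5 genes) and microglial markers (34.5 to 42.3 and 12.8 to 30.6, 5 genes) had lower sums in dcKO. Aif1 of the microglial list was at 0 in at least 1 embryo. The sum of the 7 Cajal-Retzius markers was also lower in dcKO (143 to 175 in Ctrl and 125 to 140 in dcKO). Most of that list went the other way, with 5 of 7 log2 fold changes above 0 and a median of 0.27. In cKO the endothelial, microglial and Cajal-Retzius sums were at 177 to 245, 35.4 to 74.4 and 148 to 211. The 5 erythroid genes were at 6165 to 8937 CPM in Ctrl, 7761 to 12329 in cKO and 4429 to 6129 in dcKO.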

How the data were processed

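RNA was measured in cortices of 9 E12.5 mouse embryos, 3 per genotype, assigned by the labels. The authors deposited raw counts of reads per gene, made with cutadapt, STAR on mm39 and featureCounts from paired-end sequencing of stranded mRNA libraries. Annotation release and the strand and multi-mapping settings were not given in the sources used here. If strand was ignored, antisense partners cannot be told apart, and near-identical protocadherin copies may lose or share reads. 

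Ensembl identifiers were matched to GENCODE M21 on GRCm38 (52029 genes) for symbols, coordinates, GC content and own exon length. Both symbols Pcdha11 are named by identifier. edgeR 4.0.16 (TMM factors, quasi-likelihood test, R 4.3.3) was run on genes exceeding 10 reads in each embryo, in 1 model of all 9 embryos without covariates. The standard error is the log2 fold change divided by the square root of F. Exact permutation tests used log2 CPM with a prior count of 0.5. Alternatives were DESeq2 1.42.0, which the study names, limma 3.58.1 voom with sample weights, other size factors and filters, pairwise fits, each embryo left out, blocks by replicate number or by the number in the embryo code (meaning not given), and GC correction (loess span 0.3). Values were computed in Python 3.11.15 with NumPy 2.4.6, pandas 2.3.3 and SciPy 1.17.1. The fits were run on simulated data with the same dispersion for all genes and no outlying embryo. That simulation does not show their power in the present data. The total of counted reads per embryo was 21193798 to 45073349. Their number limits the precision of low members.

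Members, gene lists and tests were chosen with earlier results of these data known. Named were every C-type gene, the 3 highest genes per kb and the lowest tested gene of each other subgroup, the 6 members with the smallest p-value per comparison, every member that DESeq2 or edgeR called, and the 3 genes with the smallest p-value of each list other than the cell type markers. Whether embryos of a genotype come from separate litters is not stated.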

Additional observations from a re-analysis of the deposited data

Results flagged for a closer look

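Pcdhb7 was the tested member whose cKO embryos all lay above the Ctrl mean and whose dcKO embryos all lay below it. The Ctrl mean was 1.61 CPM, and the cKO embryos were at 1.86, 1.9 and 1.70 and the dcKO embryos at 1.17, 0.409 and 0.786. The direct comparison of dcKO with cKO gave a log2 fold change of -1.21 (edgeR adjusted p = 0.889), and one of -0.88 without dcKO replicate 2 (edgeR adjusted p = 1.0), and no other test of the opposite directions was made. Both mutants share the same control embryos. With 3 embryos per genotype, single outlying embryos were not tested for.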

How the results depend on the processing

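The count of called members in cKO was 0 and became 1 with limma voom and 1 when blocked by the number in the embryo code. In dcKO it was 0 and became 2 with DESeq2, 2 with DESeq2 on the filterByExpr genes and 2 with DESeq2 without dcKO replicate 2 (both chosen after seeing the data), and 5 with limma voom. Leaving out 1 embryo at a time gave 0 in cKO, 0 to 4 in dcKO, where the 4 came without dcKO replicate 3, and 0 in dcKO against cKO. In cKO these fits called 0% of all genes without a Ctrl or cKO embryo, and 6.71%, 8.45% and 10.7% without dcKO replicate 1, 2 or 3. In dcKO they called 0% except without dcKO replicate 2 (9.81%) or 3 (23.6%). Apart from the code number block, every alternative in dcKO against cKO gave 0 members, with at most 9.01% of all genes called (without dcKO replicate 3). The median log2 fold change of members in dcKO, -0.14, became -0.38 with limma voom and 0.04 with the GC correction. It was 0.12 when blocked by the number in the embryo code. Under that block the dcKO value rests on dcKO replicate 3 and Ctrl replicate 3 alone, the only dcKO and Ctrl embryos sharing a number. In cKO the median, 0.01, became 0.13 with DESeq2 on the filterByExpr genes and 0.15 with filterByExpr in the 6 embryos compared (both chosen after seeing the data). Between dcKO and cKO the median went from -0.09 to 0.08 with the GC correction and to 0.30 with the code number as a block. No dcKO embryo shares a number with a cKO embryo, so the blocked value compares them only through Ctrl embryos. With 1 embryo left out, it ranged from -0.11 to 0.17 in cKO, -0.27 to -0.10 in dcKO and -0.17 to -0.03 between them. With the replicate number as a block, 0 members and 0 genes in all were called in each comparison, and the medians were 0.01, -0.16 and -0.07. With this replicate block and the GC correction together, the median in dcKO was 0.02. Deviations of embryos sharing a replicate number correlated at a mean of -0.169 (9 pairs), so the numbers were not taken as pairing. The causes of these shifts were not tested. The main filter left out 13 of 22 beta genes, some of them through dcKO embryos near 0, and edgeR in 9 embryos called 0.0146% of all genes in cKO, so that 0 called members does not show equal levels.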

Other observations

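Inside the alpha cluster, past the first exon of Pcdhac2 and before the constant exons, the antisense transcript Gm10544 is annotated on the other strand. The strand setting of the counting was not given in the sources used here. It was at 0.693, 1.39 and 1.62 CPM in Ctrl, 3.65, 3.98 and 2.15 in cKO and 2.33, 2.66 and 1.49 in dcKO, and every cKO embryo exceeded every control (log2 fold change 1.40, edgeR adjusted p = 0.0831, DESeq2 0.0315). Pcdhac1, upstream of it, was also above every control in every cKO embryo, as were 29.2% of all genes tested. A link between these genes was not tested. The transcripts BC037039 and 3222401L13Rik, examined along with Gm10544, overlapped between cKO and Ctrl (filterByExpr log2 fold changes of -0.27 and 0.07). Gm10544 was chosen after its values were seen.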
